A study of Mus musculus with 12 samples.

Results

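The genes described here are 43 genes of DNA replication and S phase, chosen by name from a list and read in all 12 samples. All 43 were found among the 55401 genes of the deposited tables. They were followed in adult neural stem/progenitor cells (aNSPCs), which were isolated from the forebrain of adult C57BL/6 mice aged 8 to 10 weeks and grown in culture. Under proliferating conditions the medium held the growth factors EGF and FGF-2, and under differentiation conditions it held 1 µM retinoic acid and 5 µM forskolin. In each condition 3 samples received no NAD+ (Ctrl group) and 3 samples received 1 mM NAD+, which gave 4 groups of 3 samples. The groups follow the sample titles, since the treatment field of the labels lists every sample as untreated, the 6 titled NAD included. All samples came from cells in culture and not from tissue, and whether the 3 samples of a group came from separate mice is not stated in the labels, so the p-values measure the spread between these samples. RNA-seq was used to ask how the expression of these genes differed between NAD+ and Ctrl in each condition, and between both conditions.

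Before S phase, cells load a double ring of the MCM2 to MCM7 proteins onto replication origins with the help of CDC6 and CDT1. At the onset of S phase, driven by cyclin E and by E2F transcription factors, CDC45 and the GINS complex join the ring to form the CMG helicase, which unwinds the DNA ahead of the polymerases. The sliding clamp PCNA, its loader RFC, the single-strand binding protein RPA and the enzymes that join Okazaki fragments complete the fork, while ribonucleotide reductase and its partners supply deoxynucleotides and CAF-1 and UHRF1 act on the chromatin behind it. Neural stem and progenitor cells express these genes while they divide, and cells that leave the cell cycle to differentiate reduce them. In bulk RNA, fewer cycling cells and less RNA per cell cannot be told apart.

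Many of these genes are textbook E2F targets, so the 250 bases before and 50 bases after each RefSeq start site (GRCm38.p6) were searched on both strands for the 4 E2F motif sequences TTTCCCGC, TTTGGCGC, TTTCGCGC and TTTGCCGC. Of the 43 genes, 35 had a promoter entry, with 40 promoters between them. An E2F motif was found in 13 of the 40 promoters (32.5%), against 2.26% of all 32851 promoters of the table. The CCAAT sequence was found in 22 of the 40 (55%) against 37.4% of all promoters, and the TTTGAA sequence in 4 of the 40 (10.0%) against 17.9%. A match is a description of letters and not of a bound site. The upstream sequences of 3 genes are shown because Mcm5 had the largest fall under differentiation conditions in both the Ctrl and the NAD+ group, Mcm6 had the most E2F matches, and Rpa1 was the gene whose level was not called different between the conditions. Each run is the 250 bases before the RefSeq start site, 5′ to 3′ on the strand of the gene, with bases of the E2F motif in capitals.
Mcm5, chr8:75109259-75109508, plus strand: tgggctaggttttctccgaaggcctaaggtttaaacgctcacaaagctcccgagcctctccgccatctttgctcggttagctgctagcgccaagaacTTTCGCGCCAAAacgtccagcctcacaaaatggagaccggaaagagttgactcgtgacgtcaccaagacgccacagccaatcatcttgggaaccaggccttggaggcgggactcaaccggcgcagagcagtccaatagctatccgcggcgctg
Mcm6, chr1:128359706-128359955, minus strand: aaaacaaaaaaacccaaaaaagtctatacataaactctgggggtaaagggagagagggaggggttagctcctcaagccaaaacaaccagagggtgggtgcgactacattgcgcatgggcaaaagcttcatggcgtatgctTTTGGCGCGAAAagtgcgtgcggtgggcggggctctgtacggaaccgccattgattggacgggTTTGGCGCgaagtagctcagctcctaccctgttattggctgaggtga
Rpa1, chr11:75348384-75348633, minus strand: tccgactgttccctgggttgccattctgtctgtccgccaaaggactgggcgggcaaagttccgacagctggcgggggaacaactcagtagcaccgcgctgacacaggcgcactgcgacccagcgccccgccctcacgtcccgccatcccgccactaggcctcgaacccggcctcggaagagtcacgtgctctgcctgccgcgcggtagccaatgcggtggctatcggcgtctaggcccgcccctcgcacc
In Mcm5, 2 matches on opposite strands shared bases and gave 12 capitals. In Mcm6, 3 matches, of which 2 shared bases, gave 20 capitals. In Rpa1 none of the 4 sequences was present in the 300 bases searched.

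The deposited values were FPKM (fragments per kilobase of a gene's transcript, relative to all mapped fragments), which allow levels to be compared between genes of different length. Every FPKM value was a whole multiple of 0.01 and the reads behind it could not be recovered, so the depth of the samples is unknown and no counting error is given. The values of a sample summed to between 308828 and 363330 FPKM, with the highest sum in proliferating Ctrl sample 1. Mitochondrial transcripts made up 16.4% to 19.9% of the sum under proliferating conditions and 28.9% to 33.2% under differentiation conditions. Of the markers of the labelled cell type, the transcription factor Sox2 was at 225 ± 24.1 FPKM (SD, n = 3) and the intermediate filament Nes (nestin) at 68.8 ± 18.3 FPKM in the proliferating Ctrl group. The other listed progenitor markers ranged there from Pax6 at 3.02 to Vim at 187 FPKM. The 7 oligodendrocyte-lineage markers summed to 288 to 378 FPKM under proliferating and 156 to 242 FPKM under differentiation conditions. Among them Olig2 was at 334 ± 24.9 FPKM in the proliferating Ctrl group. The 7 neuron markers summed to 22.4 to 35.5 FPKM over all samples, but single markers moved both ways. In the Ctrl group 4 of them had a log2 change above 0 from proliferating to differentiation conditions and 3 had one below 0. For example, Dcx went from 1.49 to 4.06 FPKM on average and Syt1 from 0.527 to 0.16 FPKM. The 7 microglia markers summed to between 0 and 0.37 FPKM and the 6 endothelial and mural markers to between 0.35 and 1.28 FPKM in every sample. Both proliferating samples numbered 1 stood apart. Proliferating Ctrl sample 1 was the lowest of its group for 35 of the 43 replication genes and proliferating NAD+ sample 1 was the lowest of its group for all 43. The summed level of the 6 astrocyte markers was 445 FPKM in proliferating Ctrl sample 1 against 303 and 309 FPKM in the other two Ctrl samples, and 355 FPKM in NAD+ sample 1 against 232 and 233 FPKM. Whether this had a part in the levels of the replication genes was not tested, and the values for both treatments are given with and without these samples.

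Dividing aNSPCs expressed the whole set. Under proliferating conditions the mean level in the Ctrl group lay above 1 FPKM for all 43 genes and at 10 FPKM or more for 19, with a median over genes of 7.88 FPKM. Pcna, the sliding clamp that holds polymerases on DNA, was the highest at 95.5 ± 2.81 FPKM (SD, n = 3), and Mcm10, which helps to activate the helicase, was the lowest, with 1.71, 2.85 and 2.89 FPKM in the 3 samples. Under differentiation conditions the median over genes was 1.40 FPKM in the Ctrl group and 16 of the 43 genes were below 1 FPKM. There Rpa1, the large subunit of the single-strand binding protein, was the highest at 21.6 ± 4.49 FPKM, and Chaf1b, a subunit of the histone chaperone CAF-1, was the lowest with 0.10, 0.07 and 0.16 FPKM. In the NAD+ group the highest and the lowest gene were Pcna and Mcm10 under proliferating conditions (106 ± 16.1 and 3.48 FPKM on average) and Pcna and Chaf1b under differentiation conditions (20.1 ± 0.978 and 0.0867 FPKM on average). The spread between samples of a group was a median of 11.4% to 14.5% of the mean over the genes. Fen1, the flap nuclease that trims Okazaki fragments, varied most under proliferating conditions, with 6.09, 13.71 and 16.25 FPKM in Ctrl and 7.39, 20.99 and 21.16 FPKM in the NAD+ group. Its exons share 84.2% of their bases with other genes, mostly with the antisense gene Gm10143, and without stranded reads the sources cannot be told apart. The same applies to Gins2 (67.3% of exon bases shared) and Chaf1a (52.5%), while 28 of the 43 genes share no exon base with another gene.

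**Figure D1:**
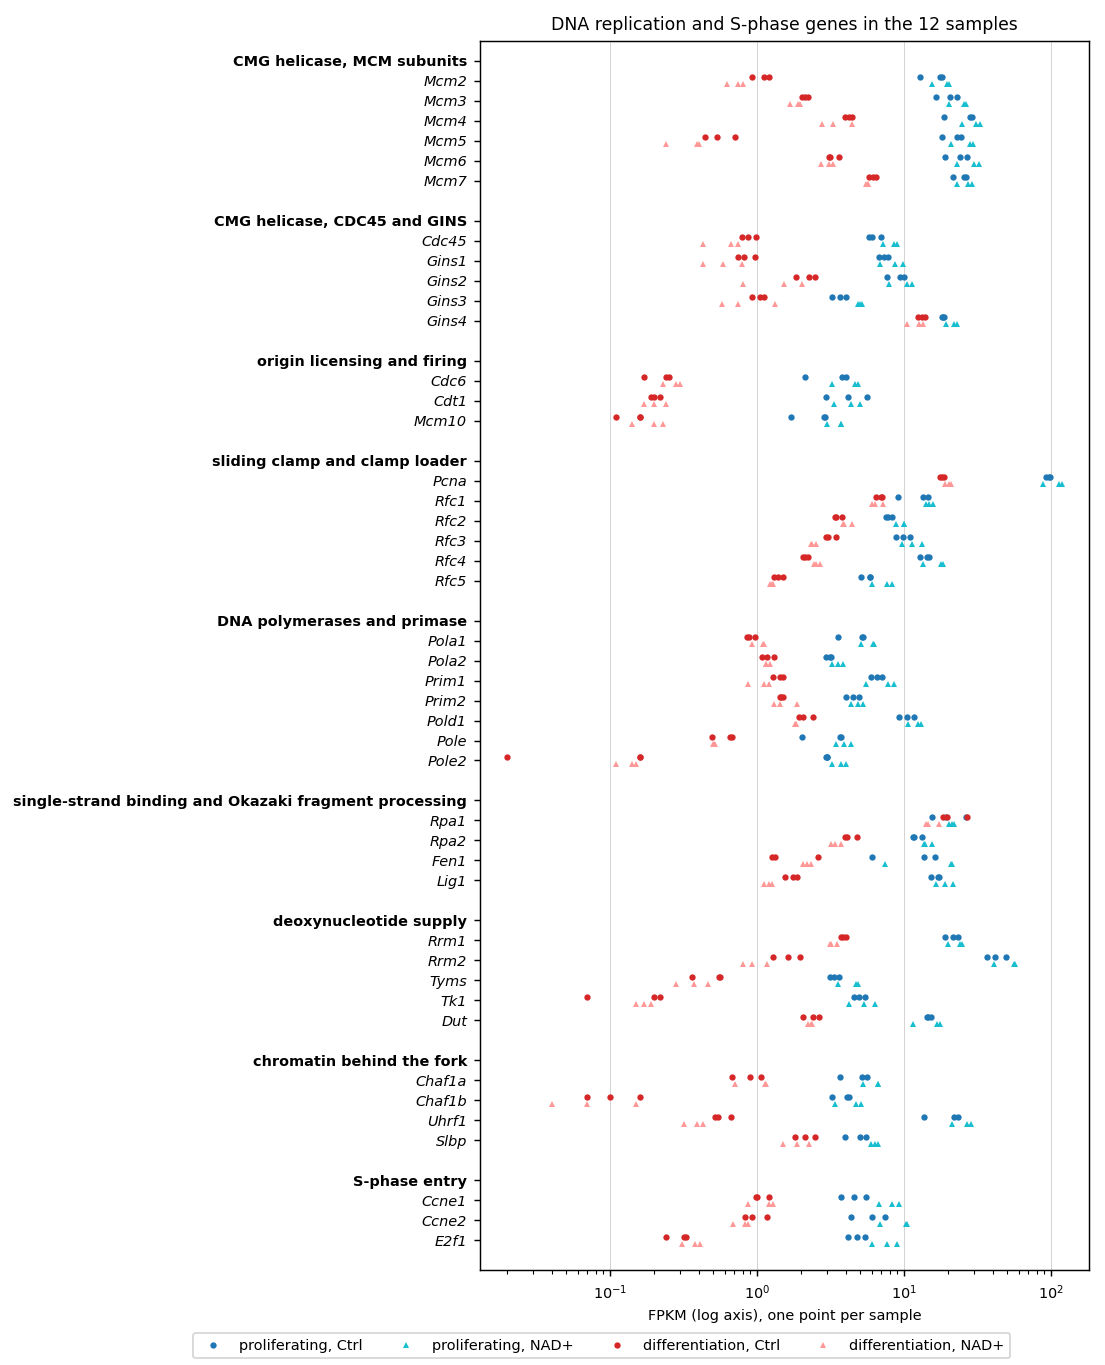
FPKM (log axis) of the 43 genes, grouped by role, with one point per sample for the 4 groups of 3 samples. The samples under differentiation conditions lie to the left of those under proliferating conditions for nearly every gene, and Rpa1, where they mix, is the exception in the Ctrl group.

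Differentiation conditions were compared with proliferating conditions to see how far each part of the replication machinery fell. In the Ctrl group, 42 of the 43 genes were lower under differentiation conditions (limma on log2(FPKM + 0.1), adjusted p under 0.05 over all 19498 tested genes) and 0 were higher, against 31.6% of all tested genes called lower and 25.0% called higher. None was higher at an unadjusted p under 0.05 either, against 27.4% of all genes. The median log2 change was -2.47, against -0.06 over all tested genes, and the genes kept a median of 16.6% of their proliferating level. Between the conditions 42 genes had samples that did not overlap, against 33.9% of all genes not overlapping in the lower direction. The conditions were deposited in separate tables, and whether these were scaled together is not given in the sources used here, so these differences carry that limit. The mitochondrial share given above moved with the same comparison, and so did markers of astrocytes. Of the 6 astrocyte markers 4 were called higher and 1 (S100b) lower in Ctrl. Their sum went from 303 to 445 FPKM under proliferating conditions to 995 to 1084 FPKM under differentiation conditions, and Gfap from 19.1 to 595 FPKM on average. The part of either in the result was not tested.

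All 6 MCM subunits of the helicase ring fell, by a median log2 change of -2.97. Mcm5 read 18.04, 22.90 and 24.42 FPKM in the proliferating Ctrl samples and 0.71, 0.44 and 0.53 FPKM in the differentiation Ctrl samples. This was the largest fall of all 43 genes, with a log2 change of -5.06 ± 0.21 (SE, adjusted p = 1.58e-08), and it left 2.57% of the proliferating level. Mcm7, which belongs to the same ring, fell by only 1.97 ± 0.10 on the log2 scale and kept 25.1%. The difference between the 2 genes was not itself tested.

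All 5 genes of CDC45 and GINS, the other parts of the CMG helicase, also fell, with a median of -1.99. Cdc45 kept 14.0% of its level and Gins1 11.6%. Gins4 was the exception among the GINS subunits, at 18.16, 18.66 and 18.43 FPKM in the proliferating and 13.16, 13.83 and 12.35 FPKM in the differentiation Ctrl samples. The samples did not overlap, and the log2 change was -0.49 ± 0.10 (adjusted p = 0.00126). Under quantile normalization the fall of Gins4 was 0.18 on the log2 scale in place of 0.49 and was no longer called (adjusted p = 0.105).

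The 3 genes of origin licensing and firing fell by a median of -3.38. Cdt1, which loads the MCM ring, read 2.96, 4.17 and 5.55 FPKM under proliferating conditions and 0.19, 0.20 and 0.22 FPKM under differentiation conditions, and Cdc6, its loading partner, kept 6.62% of its level. All 6 genes of the clamp and its loader fell, with a median of -1.77, the smallest of the 9 role groups. Pcna itself kept 18.9% of its level, with 96.41, 92.30 and 97.68 FPKM falling to 18.07, 17.58 and 18.58 FPKM. Rfc1, the large subunit of the loader, read 9.12, 14.46 and 13.45 FPKM against 6.40, 6.98 and 7.07 FPKM (log2 change -0.82 ± 0.15, adjusted p = 0.000688). Rfc2, a small subunit, read 7.76, 7.55 and 8.32 FPKM against 3.41, 3.80 and 3.45 FPKM (-1.13 ± 0.09, adjusted p = 1.52e-06). Rfc1 and Rfc2 kept 55.2% and 45.1%, while Rfc4 of the same complex kept 15.3%.

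All 7 polymerase and primase genes fell, with a median of -2.16. Pole2, the second subunit of the leading-strand polymerase epsilon, fell furthest among them and kept 3.80%, though 1 of its differentiation Ctrl samples was at 0.02 FPKM and the other two at 0.16 FPKM. Pola2 and Prim2, both of the primase complex that starts each strand, kept 38.3% and 32.7%. Among the single-strand binding and Okazaki genes 3 of 4 fell. Lig1, the ligase that seals Okazaki fragments, went from 15.35, 17.04 and 17.37 FPKM to 1.75, 1.55 and 1.86 FPKM and had the smallest adjusted p of the set (5.69e-09), with a log2 change of -3.20 ± 0.11.

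Rpa1 was the one gene not called. It read 15.40, 26.28 and 19.20 FPKM in the proliferating and 18.45, 19.65 and 26.76 FPKM in the differentiation Ctrl samples, and these values overlapped. The log2 change was 0.11 ± 0.18 (adjusted p = 0.648), and its sign turned when single samples were left out, to -0.06 without differentiation Ctrl sample 3 and to -0.07 without proliferating Ctrl sample 1. Under quantile normalization it was 0.46, with an unadjusted p of 0.0284 and an adjusted p of 0.0516 in limma, so in that fit 1 of the 43 genes was higher at the unadjusted threshold. Rpa2, the middle subunit of the same RPA complex, fell from 12.1 ± 1.01 to 4.27 ± 0.442 FPKM (log2 change -1.48 ± 0.10, adjusted p = 5.03e-07).

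All 5 genes of deoxynucleotide supply fell, with a median of -2.59. Rrm2, the small subunit of ribonucleotide reductase, read 36.53, 41.33 and 49.03 FPKM under proliferating and 1.63, 1.29 and 1.97 FPKM under differentiation conditions (log2 change -4.62 ± 0.19, adjusted p = 1.52e-08) and kept 3.85%. Rrm1, the large subunit of the same enzyme, kept 18.2%. Tk1, the S-phase thymidine kinase, fell from 4.57, 4.94 and 5.42 FPKM to 0.20, 0.22 and 0.07 FPKM (-4.32 ± 0.24, adjusted p = 1.25e-07). Both Rrm2 and Tk1 stand among the 4 largest falls.

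The 4 genes grouped under chromatin behind the fork fell by a median of -3.28. Uhrf1, which reads hemimethylated DNA and brings in the maintenance methyltransferase, went from 13.64, 21.77 and 23.41 FPKM to 0.54, 0.66 and 0.52 FPKM (-4.84 ± 0.20, adjusted p = 1.60e-08). Of the CAF-1 subunits Chaf1b kept 2.87% and Chaf1a 18.3%. Slbp, which was placed in this group but binds the stem-loop of histone mRNAs, kept 44.2%. The 3 S-phase entry genes fell by a median of -2.47, with E2f1, a transcription factor of the G1/S switch, keeping 6.21%, Ccne2 16.4% and Ccne1 23.1%. In all, 7 of the 43 genes kept less than 5% of their level, 4 kept 5% to 10%, 16 kept 10% to 20%, 13 kept 20% to 50% and 3 kept at least 50%. The fold changes of genes below 1 FPKM are understated by the 0.1 FPKM added before the logarithm.

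In the NAD+ group 42 of the 43 genes were likewise lower under differentiation conditions (adjusted p under 0.05) and 0 were higher, against 37.6% of all genes called lower and 20.8% called higher. At an unadjusted p under 0.05 again 0 were higher, against 22.8% of all genes. The median log2 change was -2.75, against -0.20 over all genes, and the median share kept was 13.9%. Mcm5 (-5.88 ± 0.21, adjusted p = 5.08e-09), Uhrf1 (-5.73 ± 0.20, 4.44e-09), Rrm2 (-5.59 ± 0.19, 3.84e-09) and Chaf1b (-4.61 ± 0.26, 1.01e-07) fell furthest. The smallest changes were again those of Rpa1, Gins4 (-0.81 ± 0.10), Rfc1 (-1.17 ± 0.15) and Rfc2 (-1.22 ± 0.09). Rpa1 read 20.10, 21.84 and 21.17 FPKM under proliferating and 14.18, 17.37 and 14.61 FPKM under differentiation conditions in the NAD+ group, and here the samples did not overlap. Its log2 change of -0.45 ± 0.18 missed the threshold (adjusted p = 0.0547, unadjusted p = 0.0323), and it passed when proliferating Ctrl sample 1 or 2, differentiation Ctrl sample 3 or differentiation NAD+ sample 2 was left out (adjusted p of 0.0206 to 0.0479) or when genes below 1 FPKM were not tested (0.0471). Ctrl samples do not enter the log2 change of the NAD+ group. Leaving 1 of them out altered the spread estimate shared by all groups and not the change itself. Rpa1 also passed with a replicate block (0.0489) and without both proliferating samples numbered 1 (0.0447). With median-ratio scaling the change was -0.17 and with quantile normalization -0.01, and neither passed.

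The genes with an E2F motif in a promoter had a median log2 change of -3.16 in the Ctrl group (13 genes, -5.06 to -1.61), and those with a promoter entry and no motif had -2.49 (22 genes, -4.62 to 0.11). In the NAD+ group these medians were -3.54 and -2.69. The ranges overlapped widely, and Rrm2, Tk1, Chaf1b and Mcm2 fell far with none of the 4 sequences in the bases searched. These genes were picked out after their values were seen.

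**Figure D2:**
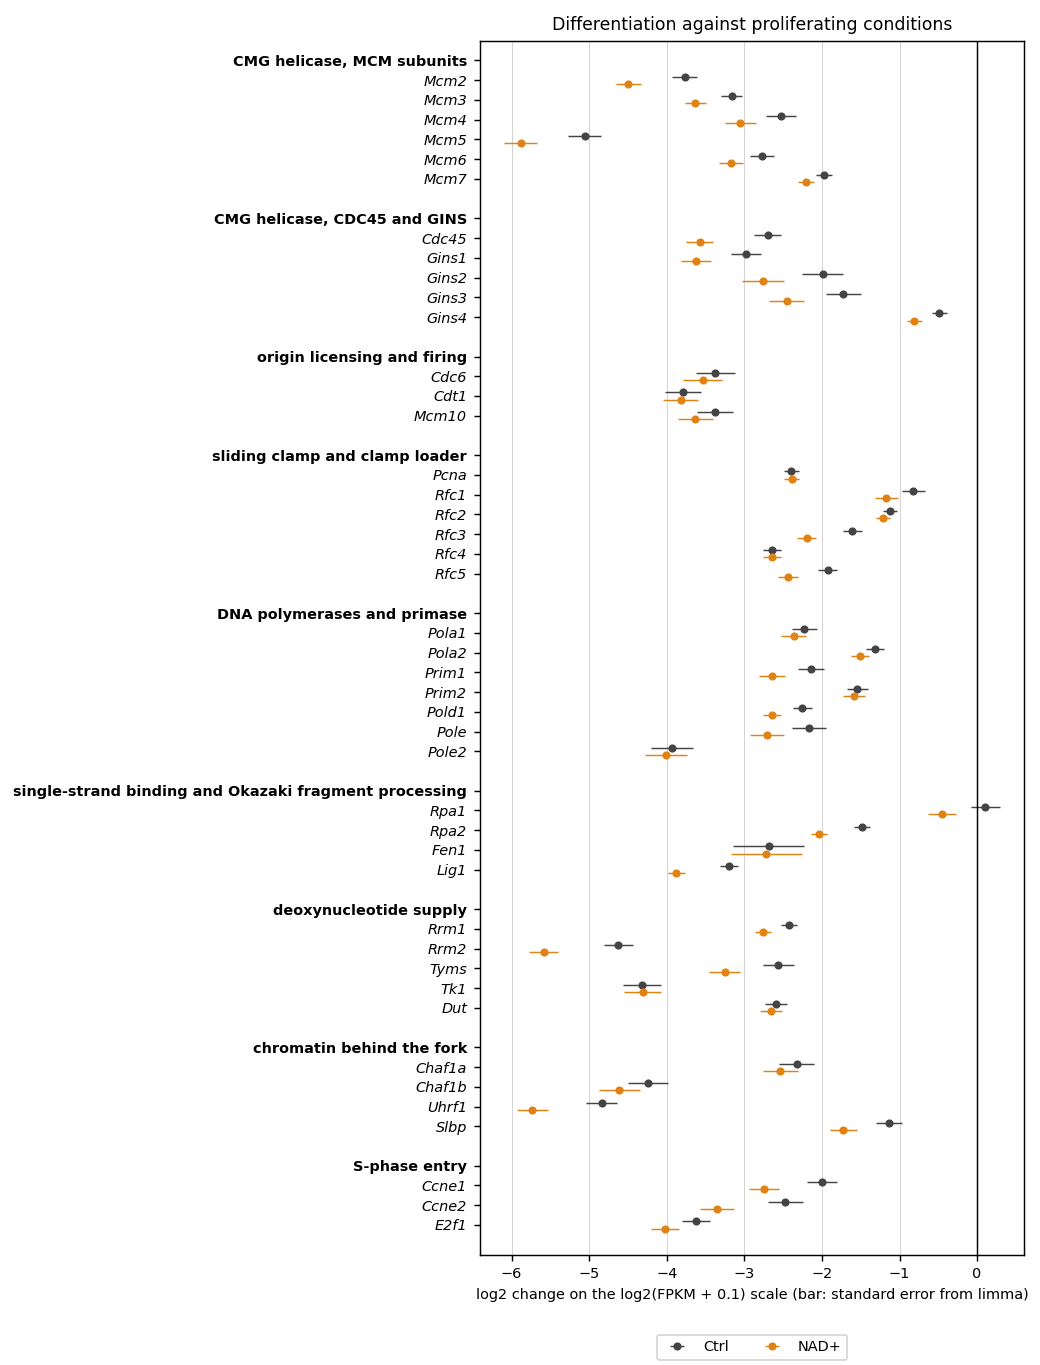
Log2 change (on the log2(FPKM + 0.1) scale) of each of the 43 genes from proliferating to differentiation conditions, in the Ctrl and the NAD+ group, with limma's standard error (3 samples per group). All points except that of Rpa1 in the Ctrl group lie below 0, from -5.88 for Mcm5 in the NAD+ group upwards.

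A list of 60 other replication genes, which holds origin recognition, accessory fork, nucleotide and G1/S genes, moved in the same direction. In the Ctrl group 50 of the 60 were lower and 1 was higher, against 31.6% and 25.0% of all genes, with a median of -1.40. In the NAD+ group 55 were lower and 1 was higher, against 37.6% and 20.8%, with a median of -1.77. Ccna2, the cyclin of S and G2 phase, fell by 5.21 ± 0.25 on the log2 scale in the Ctrl group, Asf1b, a histone chaperone, by 4.39 ± 0.27, and the E2F family genes E2f2 and E2f8 by 4.21 ± 0.20 and 4.06 ± 0.17. Clspn, a fork checkpoint mediator, was among the 4 largest falls in the NAD+ group (-4.53 ± 0.22). The one gene called higher was Rb1, the retinoblastoma protein that restrains E2F, with a log2 change of 0.49 ± 0.09 in Ctrl (adjusted p = 0.000861) and 0.43 ± 0.09 in the NAD+ group (adjusted p = 0.00183). Picked out after their values were seen, the origin recognition subunits differed among themselves in the Ctrl group, where Orc1 fell by 2.05 ± 0.32 and Orc3, Orc4 and Orc5 were not called, with log2 changes of 0.02, 0.08 and -0.14. All 10 markers of G2 and mitosis fell, and their summed level was 202 to 280 FPKM in the proliferating samples and 3.94 to 4.70 FPKM in the differentiation samples.

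NAD+ was then compared with Ctrl under proliferating conditions. None of the 43 genes was called at an adjusted p under 0.05 (limma, 18597 genes tested, of which 0.0484% were called higher and 0.0968% lower). The log2 change was above 0 for all 43 genes, against 59.7% of all genes, and for 41 with median-ratio scaling and 39 with quantile normalization. With these scalings the median over all genes was 0.011 and 0.0197, so the 59.7% does not apply to them. At an unadjusted p under 0.05, 10 genes (23.3%) were higher and 0 were lower, against 9.35% and 6.05% of all genes. In 12 of the 43 genes the NAD+ samples all lay above the Ctrl samples, against 15.5% of all genes. The median log2 change was 0.25, against 0.07 over all genes. The smallest p an exact two-sided permutation test of 3 against 3 samples can give is 0.10.

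The S-phase entry genes had the largest changes, a median of 0.64, and all 3 had an unadjusted p under 0.05. Ccne1, which encodes cyclin E1, the partner of CDK2 at the start of S phase, read 3.70, 4.55 and 5.53 FPKM in Ctrl and 6.70, 9.22 and 8.25 FPKM in the NAD+ group. The log2 change was 0.80 ± 0.18 (unadjusted p = 0.00344, adjusted p = 0.138), and the samples did not overlap. E2f1 read 4.14, 4.75 and 5.45 FPKM against 6.08, 8.98 and 7.64 FPKM (0.64 ± 0.17, adjusted p = 0.178), also without overlap, and Ccne2, for the second E-type cyclin, 4.32, 6.06 and 7.37 FPKM against 6.85, 10.49 and 10.27 FPKM (0.64 ± 0.24, adjusted p = 0.288), with overlap.

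Of the helicase genes, Gins3 read 3.24, 3.67 and 4.0 FPKM in Ctrl and 4.88, 4.98 and 5.17 FPKM in the NAD+ group (0.46 ± 0.12, adjusted p = 0.163). Cdc45 read 5.73, 6.08 and 6.98 FPKM against 7.24, 8.57 and 8.93 FPKM (0.39 ± 0.12, adjusted p = 0.233). In both genes every NAD+ sample was above every Ctrl sample. The loader subunit Rfc2 (7.76, 7.55 and 8.32 FPKM against 8.87, 9.93 and 10.01 FPKM, log2 change 0.28 ± 0.09, adjusted p = 0.248) and the histone mRNA binder Slbp (3.98, 5.49 and 5.02 FPKM against 5.93, 6.34 and 6.69 FPKM, 0.39 ± 0.14, adjusted p = 0.272) also did not overlap, and neither passed the test. The MCM subunits had a median of 0.24 and log2 changes from 0.11 for Mcm7 to 0.29 for Mcm6, all with overlapping samples. The deoxynucleotide genes had the lowest median of the role groups (0.10), and Dut (0.03) and Cdt1 (0.02) had the smallest changes.

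The samples numbered 1 again lay below the others of their group. The median log2 difference of the 43 genes from the mean of the proliferating Ctrl group was -0.18, 0.03 and 0.15 in the Ctrl samples and 0.02, 0.40 and 0.34 in the NAD+ samples, so NAD+ sample 1 lay among the Ctrl samples. Without both samples numbered 1, 29 of the 43 genes had an unadjusted p under 0.05 and were higher, against 15.6% of all genes, 41 had a log2 change above 0, and still 0 were called (smallest adjusted p = 0.0744). Leaving out NAD+ sample 1 alone gave 21 genes at an unadjusted p under 0.05, against 8.97% of all genes. Leaving out NAD+ sample 2 or 3 gave 3, which is close to the 5.31% and 5.17% of all genes in the same fits. The count was 6 without Ctrl sample 2 (9.62% of all genes), with quantile normalization (6.96%) and with variance moderation without a trend (8.5%). The summed astrocyte markers, lower in NAD+ samples 2 and 3 than in every Ctrl sample, moved with this comparison, with all 6 below 0 and 0 called, and their part was not tested.

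Under differentiation conditions, NAD+ was compared with Ctrl for the 42 genes that passed the filter of a mean of 0.1 FPKM, which Chaf1b did not. None was called (adjusted p under 0.05), against 2.27% of all 19611 tested genes called higher and 4.65% called lower. The log2 change was below 0 for 29 genes and above 0 for 13, against 61.8% and 38.2% of all genes. With either median-ratio scaling or quantile normalization 25 were below 0. The median over all genes was then -0.0077 and 0.0001, so the 61.8% does not apply to those fits. At an unadjusted p under 0.05, 8 genes were lower against 16.7% of all genes, which is close to the background, and 2 were higher against 7.50%. The count of 8 was 5 without differentiation Ctrl sample 1 or 2 or NAD+ sample 1 (12.4%, 13.5% and 14.5% of all genes), and with median-ratio scaling or quantile normalization (10.8% and 11%). The samples did not overlap in the lower direction for 15 genes, against 21.1% of all genes, and in the higher direction for 3, against 9.68%. The median was -0.16, against -0.09 over all genes.

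Lig1 had the smallest p of these genes, with 1.75, 1.55 and 1.86 FPKM in Ctrl and 1.12, 1.26 and 1.20 FPKM in the NAD+ group (log2 change -0.49 ± 0.12, unadjusted p = 0.00628, adjusted p = 0.0689). Rfc3, a small loader subunit, read 3.04, 2.95 and 3.46 FPKM against 2.51, 2.35 and 2.33 FPKM (-0.38 ± 0.10, adjusted p = 0.0748), and it was called when only the genes with a mean of at least 1 FPKM were tested (adjusted p = 0.0492). That fit called 1075 of all 12671 tested genes lower and 514 higher. Rrm2 read 1.63, 1.29 and 1.97 FPKM against 1.17, 0.92 and 0.80 FPKM (-0.70 ± 0.21, adjusted p = 0.101). In all 3 genes every NAD+ sample was below every Ctrl sample.

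Mcm2, a subunit of the helicase ring, read 1.21, 1.12 and 0.92 FPKM against 0.62, 0.80 and 0.74 FPKM (-0.53 ± 0.17, adjusted p = 0.125). Both RPA subunits stood among the 6 smallest p-values, Rpa1 with 18.45, 19.65 and 26.76 FPKM against 14.18, 17.37 and 14.61 FPKM (-0.47 ± 0.15, adjusted p = 0.126) and Rpa2 with 4.09, 4.77 and 3.94 FPKM against 3.19, 3.71 and 3.37 FPKM (-0.31 ± 0.11, adjusted p = 0.144). None of these 3 genes had overlapping samples. In the other direction, Pcna (18.07, 17.58 and 18.58 FPKM against 19.04, 20.32 and 20.96 FPKM) and Rfc4 (2.22, 2.13 and 2.05 FPKM against 2.66, 2.53 and 2.43 FPKM) had log2 changes of 0.15 ± 0.06 and 0.24 ± 0.09, with adjusted p of 0.168 and 0.175. Of the 6 genes of the clamp and its loader, 3 had a log2 change above and 3 below 0, and none was called. The CDC45 and GINS genes had the lowest median of the role groups (-0.44) and all 5 were below 0, as were all 6 MCM subunits. The 6 astrocyte markers did not move one way with NAD+ in this condition, with 3 above and 3 below 0. The intermediate filament Gfap (log2 change 0.72, 595 FPKM on average in Ctrl and 977 FPKM with NAD+) and the glutamate transporter Slc1a2 (0.26) were called higher and Aldh1l1 was called lower (-0.61, 93.5 against 61.3 FPKM). S100b (0.17), Aqp4 (-0.31) and Gja1 (-0.46) were not called. Their sum, of which Gfap was the largest term, was 1306 to 1444 FPKM with NAD+ and 995 to 1084 FPKM in Ctrl. Their part in the levels of the replication genes was not tested.

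**Figure D3:**
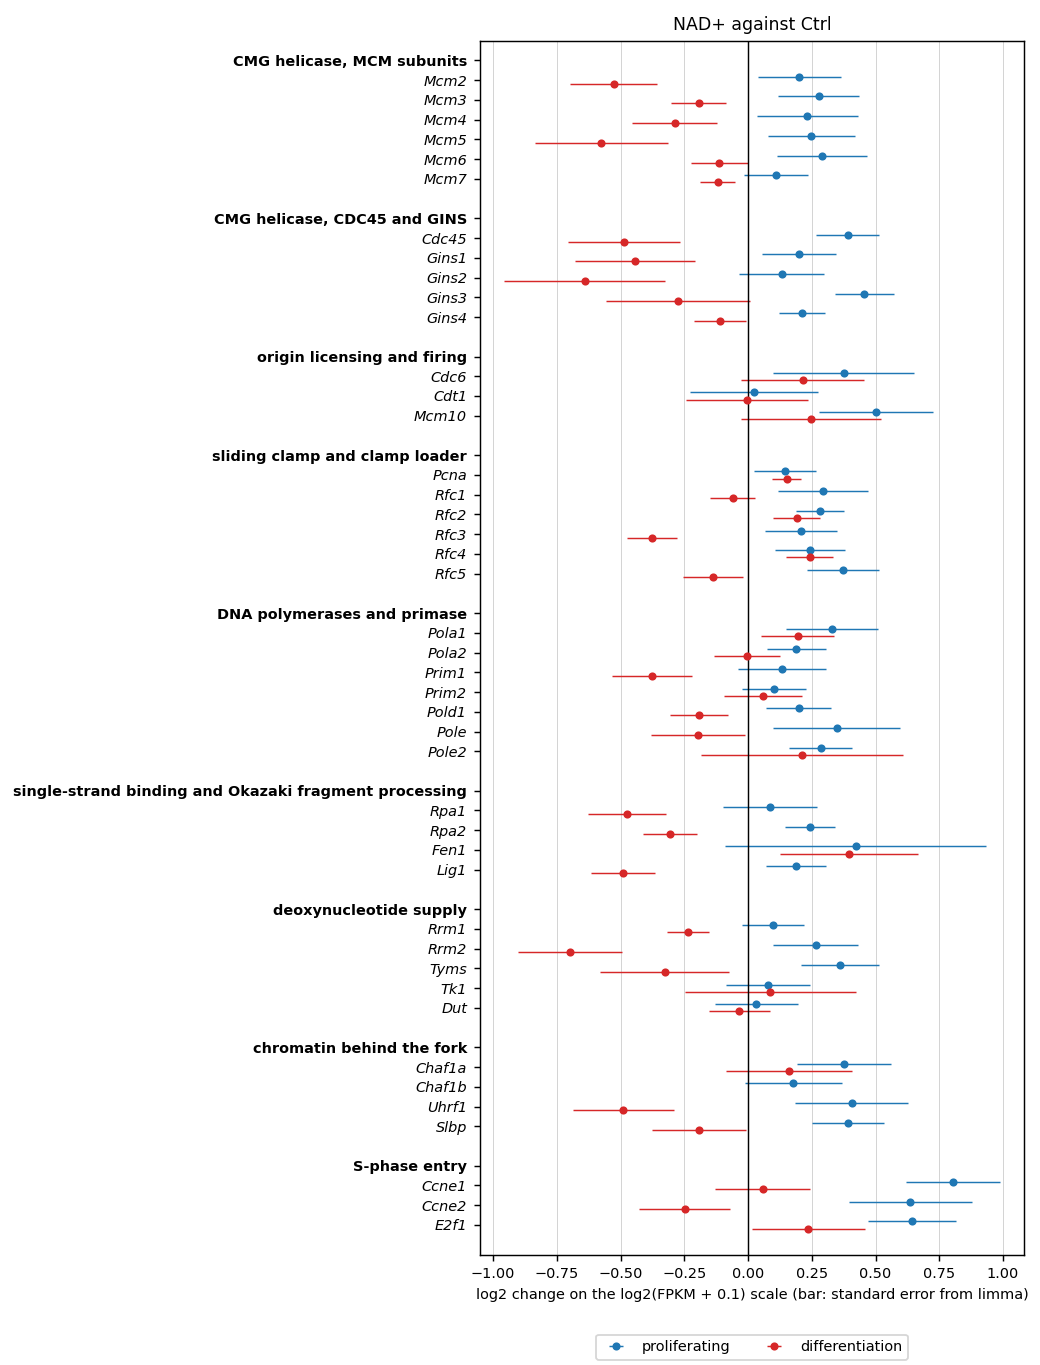
Log2 change (on the log2(FPKM + 0.1) scale) of each gene with NAD+ against Ctrl under proliferating and under differentiation conditions, with limma's standard error (3 samples per group). All 43 points under proliferating conditions lie above 0 and 29 of the 42 under differentiation conditions lie below 0, and no single gene passed the adjusted threshold in either.

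Whether the NAD+ effect differed by condition was tested as an interaction in the fit of all 12 samples, and a value below 0 means a lower log2 change under differentiation conditions. None of the 43 genes was called, against 0.221% of all genes called higher and 0.246% called lower. The difference was below 0 for 41 genes, against 66.8% of all genes, and for 33 with median-ratio scaling and 30 with quantile normalization. Under these scalings the median over all genes was -0.0157 and -0.015, so the 66.8% does not apply to them. At an unadjusted p under 0.05 it was below 0 for 19 genes (12.2% of all genes) and above 0 for 0 (3.35% of all genes). With median-ratio scaling this count was 11 (5.60% of all genes) and with quantile normalization 9 (6.17%). It was also 11 without proliferating NAD+ sample 2 or 3 (9.25% and 9.30%), and 12 without proliferating Ctrl sample 1 (12.2%). The median difference was -0.41, against -0.16 over all genes. In 3 of the 42 genes tested in both conditions (Cdc45, Rfc5 and Rpa2) the NAD+ samples lay wholly above Ctrl under proliferating and wholly below it under differentiation conditions, against 2.01% of all genes tested in both.

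Lig1 had the smallest p, with a difference of -0.68 ± 0.16 (adjusted p = 0.0911), followed by Rpa2 (-0.55 ± 0.14, 0.117), Rrm2 (-0.96 ± 0.27, 0.137) and Cdc45 (-0.88 ± 0.25, 0.138). Without both samples numbered 1 the difference of Lig1 was called (-0.72, adjusted p = 0.0442). In that fit 241 of all 19570 tested genes were called lower and 164 higher, against 48 and 43 in the main fit. Rrm2 read 36.53, 41.33 and 49.03 FPKM in Ctrl and 40.66, 56.59 and 55.87 FPKM with NAD+ under proliferating conditions, where the samples overlapped, and all NAD+ samples were below all Ctrl samples under differentiation conditions. For Lig1 the proliferating values were 15.35, 17.04 and 17.37 FPKM in Ctrl and 16.46, 21.49 and 19.01 FPKM with NAD+, with overlap. Pcna, Tk1 and Rfc4 had the differences nearest to 0, at 0.0057, 0.0101 and -0.0013, with SEs of 0.14, 0.34 and 0.16.

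**Figure D4:**
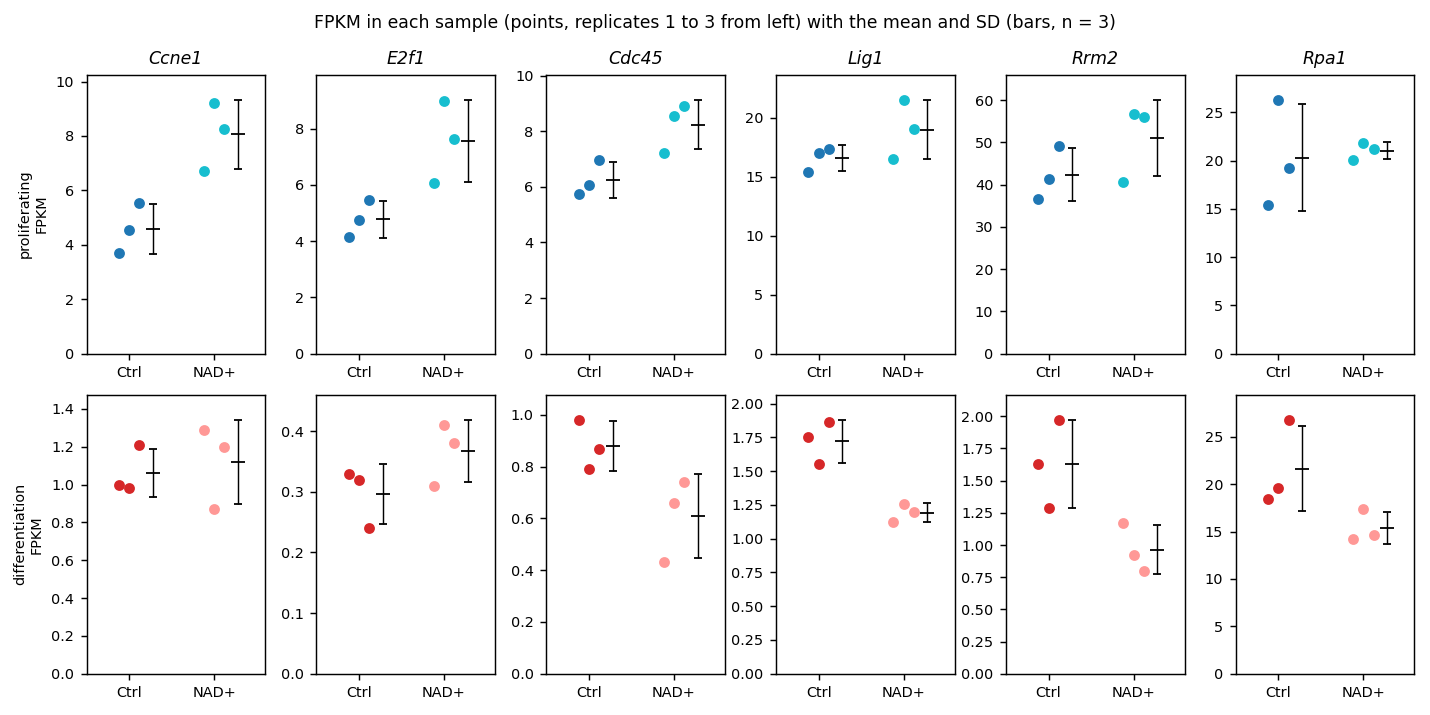
FPKM of 6 genes in every sample (points) with the mean and SD of 3 samples (bars), under proliferating conditions in the upper and under differentiation conditions in the lower row, each panel on its own axis from 0. Ccne1, E2f1 and Cdc45 lie higher with NAD+ in the upper row without overlap, and Cdc45, Lig1, Rrm2 and Rpa1 lie lower with NAD+ in the lower row without overlap.

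In the list of 60 other replication genes, 0 were called in either NAD+ comparison. Under proliferating conditions 52 of the 60 had a log2 change above 0, against 59.7% of all genes, with a median of 0.21. At an unadjusted p under 0.05, 8 (13.3%) were higher and 0 were lower, against 9.35% and 6.05% of all genes. Under differentiation conditions 43 of the 56 tested were below 0, against 61.8% of all genes, with a median of -0.15. At an unadjusted p under 0.05, 11 (19.6%) were lower and 1 was higher, and the first share is close to the 16.7% of all genes, with 7.50% higher. The 10 markers of G2 and mitosis had a median of 0.22 under proliferating and -0.03 under differentiation conditions, and none was called.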

How the data were processed

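The 12 RNA-seq samples of mouse aNSPCs were grouped by their titles. The authors aligned reads with Hisat2 against mm10, kept uniquely mapped reads, counted them by gene with FeatureCounts and deposited FPKM values, rounded to 0.01, in a table for each condition. The tool that computed FPKM is not given in the sources used here. Other columns, per the file headers, hold the authors' fold change (a ratio of NAD+ over Ctrl), its log2 value, a p-value and a q-value, and none of these was used.

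FPKM values were taken as deposited and log2(FPKM + 0.1) was computed. Genes averaging at least 0.1 FPKM over the samples fitted were tested with limma 3.58.1 in R 4.3.3 (two-sided, variance moderated along an expression trend), with Benjamini-Hochberg adjustment over all tested genes and a call at an adjusted p under 0.05. Each NAD+ comparison was fitted on the 6 samples of its condition. Changes between conditions and the interaction came from a fit of all 12 samples, so these comparisons share samples. All p-values printed with a gene are from limma. The code was first tested on simulated data. Library depth is unknown, so the precision rests on 3 samples per group. Gene positions and exon overlap came from GENCODE M21 and promoters from RefSeq (GRCm38.p6).

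The 43 genes, the lists and the tests were chosen with earlier results of these data known. Statistics are given for the 6 genes with the smallest p in each NAD+ comparison, for the 4 largest and 4 smallest changes between conditions among genes with a mean of at least 1 FPKM, and for up to 4 genes per role or direction of the other lists. Alternatives were 1 or 0.01 added, no filter or a minimum of 1 FPKM, median-ratio scaling, quantile normalization, a replicate block, no variance trend and leaving out each sample. Leaving out both proliferating samples numbered 1 was added after seeing the data.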

Additional observations from a re-analysis of the deposited data

Results flagged for a closer look

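For 3 of the 42 genes tested in both conditions every NAD+ sample was above every Ctrl sample under proliferating conditions and below every Ctrl sample under differentiation conditions, against 2.01% of all 17558 genes tested in both (353 genes). For each the difference of the effect was itself tested in limma and did not pass the adjusted threshold. Cdc45, the helicase cofactor, read 5.73, 6.08 and 6.98 FPKM in Ctrl and 7.24, 8.57 and 8.93 FPKM with NAD+ under proliferating conditions, and 0.98, 0.79 and 0.87 FPKM against 0.43, 0.66 and 0.74 FPKM under differentiation conditions (difference of the log2 changes -0.878 ± 0.25 SE, adjusted p = 0.138). Rfc5, a small subunit of the clamp loader, read 5.09, 5.83 and 5.82 FPKM against 6.03, 8.23 and 7.65 FPKM, and 1.38, 1.5 and 1.30 FPKM against 1.22, 1.29 and 1.26 FPKM (-0.51 ± 0.18, adjusted p = 0.215). Rpa2, of the single-strand binding complex, read 11.43, 11.59 and 13.26 FPKM against 13.74, 15.43 and 13.83 FPKM, and 4.09, 4.77 and 3.94 FPKM against 3.19, 3.71 and 3.37 FPKM (-0.552 ± 0.14, adjusted p = 0.117).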

How the results depend on the processing

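The count of 42 genes lower under differentiation conditions stayed at 42 in Ctrl under every alternative but quantile normalization, where it was 41, and was 42 or 43 in the NAD+ group. The medians of these falls moved with the scale. With 1 added they were -1.83 in Ctrl and -2.11 in the NAD+ group, with median-ratio scaling -2.35 and -2.48, and with quantile normalization -2.51 in the NAD+ group. The log2 change of Rpa1 in Ctrl turned to -0.0744 without both proliferating samples numbered 1 and ranged from -0.0744 to 0.309 when 1 sample was left out. Under differentiation conditions 1 gene (Rfc3) was called with NAD+ at a minimum of 1 FPKM, of 25 then tested. In that fit 1075 of all 12671 tested genes were called lower and 514 higher. The median of -0.16 became -0.103 with 1 added, -0.086 with median-ratio scaling and -0.0616 with quantile normalization, and lay between -0.179 and -0.129 when 1 sample was left out. For the interaction, 1 gene (Lig1) was called without both samples numbered 1. Over all genes the calls of the interaction also rose in that fit, to 164 higher and 241 lower of 19570 from 43 and 48. The median of the interaction over the 43 genes became -0.269 with median-ratio scaling and lay between -0.553 and -0.309 when 1 sample was left out. Scaling moved the median of all genes by over 0.1 for the interaction (from -0.16 to -0.02) and for the change between conditions (from -0.06 to 0.05 in Ctrl and from -0.20 to 0.05 in the NAD+ group, median-ratio). Over all genes, the 9 higher and 18 lower calls of NAD+ under proliferating conditions became 29 and 46 with a minimum of 1 FPKM and 0 and 0 without a variance trend, and the 445 higher and 912 lower calls of NAD+ under differentiation conditions became 614 and 532 with median-ratio scaling and 580 and 581 with quantile normalization. When 1 sample was left out, the former ranged from 0 to 14 higher and 0 to 22 lower and the latter from 137 to 259 higher and 191 to 498 lower.

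The group mean of each gene was subtracted from log2(FPKM + 0.1). The deviations left were correlated between the Ctrl and NAD+ samples of a condition. Those of same-numbered samples correlated at 0.02 to 0.11, all above 0 but not above 0.1 in every pair. Those of differently numbered samples correlated at -0.11 to 0.07. These values do not settle whether the numbers mark pairs, and the main fits did not take them as pairs. With a replicate block 0 of the 43 genes were called in either NAD+ comparison, 18 were higher at an unadjusted p under 0.05 under proliferating conditions (10.3% of all genes), Rpa1 was called lower under differentiation conditions in the NAD+ group, and calls over all genes under proliferating conditions were 0 and under differentiation conditions 275 higher and 483 lower. For single genes, 580 recomputed values kept their direction and side of the threshold, 9 came to pass it, 1 (Gins4) no longer passed it, and 3 (Rpa1) turned in sign.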
